A study of Rattus norvegicus with 4 samples.

Results

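CXC chemokine genes encode small secreted or membrane-bound proteins in which a single amino acid separates the first pair of conserved cysteines. The 7 genes considered were Cxcl1, Cxcl2, Cxcl3, Cxcl9, Cxcl10, Cxcl11 and Cxcl16. A gene entered when the accession of an array probe matched its rat RefSeq symbol, which gave 6 of the 7, out of 16578 measured genes. No probe matched Cxcl3 through the gene table, and Cxcl3 was not analysed here. Probes whose accession is not in that table were left unnamed, so a probe for Cxcl3 may be among them. The cells were NR8383, an established macrophage line from lung lavage of a normal rat, used after 20 passages. They had been exposed for 4 h to the carboxyl-functionalized carbon nanotubes NRCWE042 at 6.8 cm2 of nanotube surface per cm2 of culture. All 4 arrays belong to this 1 exposed group, described as biological replicates in the labels, and unexposed samples were not analysed here. The values below are therefore levels in exposed cells of 1 line, with no nanotube effect and no test between conditions.

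In macrophages, Cxcl1, Cxcl2 and Cxcl3 are induced through NF-kB, for example by Toll-like receptor or interleukin-1 signals, and their products attract neutrophils through the receptor CXCR2. Cxcl9, Cxcl10 and Cxcl11 are classical interferon-induced genes whose products attract activated T cells and NK cells through CXCR3. Cxcl16 encodes a transmembrane chemokine and scavenger receptor for oxidized lipoprotein, which metalloproteases release as a soluble ligand of CXCR6. In lung lavage after particle inhalation, CXC chemokines of the first group are widely used as markers of neutrophil recruitment.

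The clusters are visible in the genome. In the GRCr8 gene table, Cxcl2 and Cxcl1 are neighbouring protein-coding genes on chromosome 14, Cxcl11, Cxcl10 and Cxcl9 follow each other on the same chromosome, and Cxcl16 lies apart on chromosome 10 between Med11 and Zmynd15. The RefSeq start-site table held windows for 6 of the 7 genes. The 250 bases upstream of the gene start are shown for Cxcl1 and Cxcl2 and for Cxcl10 and Cxcl11, because within each of these neighbouring pairs 1 gene was well above background and the other was not. Each is written 5′ to 3′ on the gene's own strand, and capitals mark motif matches.
Cxcl2 (chr14:17467256-17467505, minus strand): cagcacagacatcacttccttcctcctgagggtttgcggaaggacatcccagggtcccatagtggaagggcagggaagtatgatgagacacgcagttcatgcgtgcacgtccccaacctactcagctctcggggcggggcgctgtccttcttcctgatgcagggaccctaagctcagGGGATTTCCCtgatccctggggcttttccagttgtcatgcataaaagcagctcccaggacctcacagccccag
Cxcl1 (chr14:17479322-17479571, minus strand): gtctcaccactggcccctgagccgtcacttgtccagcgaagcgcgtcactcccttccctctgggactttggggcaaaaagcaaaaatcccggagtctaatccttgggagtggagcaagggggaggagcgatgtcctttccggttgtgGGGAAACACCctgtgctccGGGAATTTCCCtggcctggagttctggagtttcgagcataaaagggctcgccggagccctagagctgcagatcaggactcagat
Cxcl10 (chr14:15988816-15989065, plus strand): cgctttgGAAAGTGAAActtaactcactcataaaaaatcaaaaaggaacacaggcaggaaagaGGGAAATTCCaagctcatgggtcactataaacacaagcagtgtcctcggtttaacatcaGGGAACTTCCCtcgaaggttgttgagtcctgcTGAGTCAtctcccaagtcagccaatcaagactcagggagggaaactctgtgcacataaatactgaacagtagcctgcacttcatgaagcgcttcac
Cxcl11 (chr14:15973478-15973727, plus strand): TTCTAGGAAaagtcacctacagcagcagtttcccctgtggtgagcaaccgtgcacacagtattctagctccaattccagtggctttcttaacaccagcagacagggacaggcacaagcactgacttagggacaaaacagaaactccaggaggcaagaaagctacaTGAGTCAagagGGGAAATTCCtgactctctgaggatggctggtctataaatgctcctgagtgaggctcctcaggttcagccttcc

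The motifs were searched on both strands as fixed letters: GGGA, any 4 bases and CC for NF-kB, GAAA, any 2 bases and GAAA for the interferon-stimulated response element (ISRE), TTCNNNGAA for the gamma-activated sequence (GAS) and TGANTCA for AP-1. A match to the NF-kB letters occurred upstream of 5 of the 6 genes, all except Cxcl16, beside 16.4% of 33465 RefSeq windows of the same length. In Cxcl2 it was GGGATTTCCC, 73 to 64 bases before the start. In its neighbour Cxcl1 the overlapping matches GGGAATTTCC and GGAATTTCCC lay 84 to 74 bases before the start, with a further match, GGGAAACACC, at 103 to 94. Cxcl10 and Cxcl11 share the match GGGAAATTCC, at 187 to 178 bases before the start in Cxcl10 and 74 to 65 in Cxcl11. Cxcl10 also held the overlapping matches GGGAACTTCC and GGAACTTCCC, 128 to 118 bases before the start. In Cxcl9 the single match, GGGTTTTCCC on the opposite strand, lay 94 to 85 bases before the start.

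The ISRE letters matched upstream of Cxcl10 alone among the 6 genes, as GAAAGTGAAA 243 to 234 bases before the start, beside 3.41% of all windows. The AP-1 letters matched as TGAGTCA in Cxcl10 (96 to 90) and Cxcl11 (85 to 79), beside 6.34% of windows, and the GAS letters in Cxcl11 alone, at the far end of its window, beside 7.67%. Genes with and without detectable signal thus both carry NF-kB letters in these windows. A match is a stretch of letters and not a measured binding site, and a window without one says nothing about the factor.

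**Figure D1:**
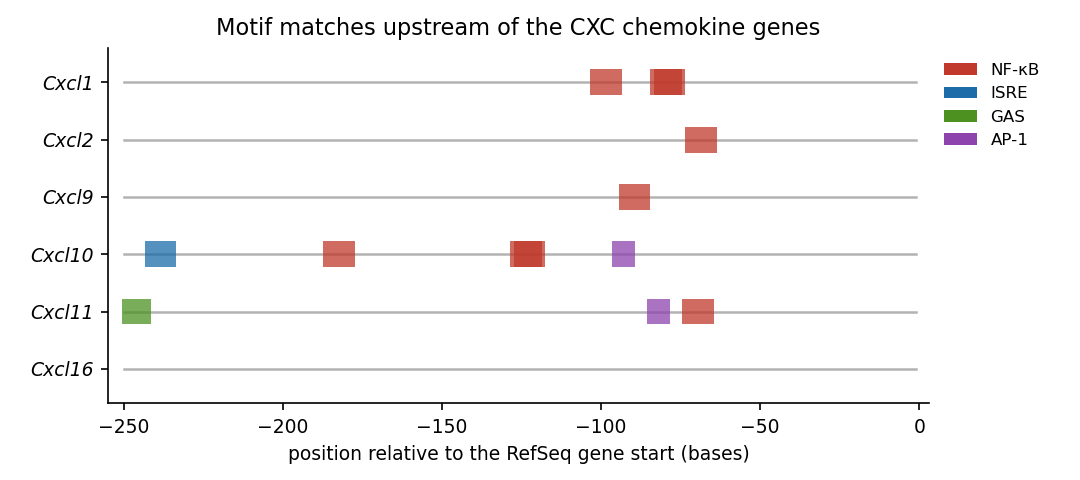
Position of the motif matches in the 250 bases upstream of the RefSeq gene start, in bases relative to that start, for the 6 CXC chemokine genes. Boxes span each match, darker where matches overlap; NF-κB boxes appear in every row except Cxcl16.

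Cxcl2, Cxcl10 and Cxcl16 were well above background on all 4 arrays, and Cxcl1, Cxcl9 and Cxcl11 were not. The call is the scanner software's own mark, taken when more than 50% of a probe's spots carried it. A gene with several probes was called on an array when any of them was. The 3 of 6 measured genes (50.0%) stand beside 44.4% of all measured genes, so the share itself is near that of the array as a whole. The split ran through both chromosome 14 groups: Cxcl2 was detected but not its neighbour Cxcl1, and Cxcl10 was detected but not its neighbours Cxcl9 and Cxcl11. Each gene rests on 1 probe, and whether a probe also captures transcripts of a related chemokine was not tested. A probe at background does not show that its transcript was absent. As these are bulk RNA samples, fewer expressing cells and less RNA per cell cannot be told apart.

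Signals are given first as processed intensities, which are background-corrected within an array but not scaled between arrays. Cxcl10, the interferon-induced CXCR3 ligand, read 3851, 3993, 3751 and 1843 on replicates 1 to 4. Its spot was 747, 703, 718 and 403 times as bright as the median negative control spot of the same array. Cxcl16, the membrane-bound ligand of CXCR6, read 1113, 1216, 1005 and 525, or 216, 214, 192 and 115 times that median. Both genes read lowest on replicate 4 and within a narrow range on the others.

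Cxcl2, encoding the neutrophil attractant also called MIP-2, read 737, 732, 635 and 426. That was 143, 129, 122 and 93.1 times the median negative control. None of the 308 negative control spots on any array reached the signal of Cxcl2, Cxcl10 or Cxcl16. All 4 arrays lay on 1 slide and were scanned together. The sample probes of replicate 4 were dim in general: their 75th percentile corresponded to a signal of 49.0 there, against 128, 131 and 98.5 on replicates 1 to 3. The mean log2 signal of the spike-in RNA was 10.37 on replicate 4, against 10.57, 10.46 and 10.65 on replicates 1 to 3. Relative to replicate 1, that percentile set against the spike-in RNA was 0.14, -0.46 and -1.18 log2 units on replicates 2, 3 and 4. How far the low raw signals on replicate 4 follow from the array was not tested.

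Cxcl1, the neutrophil attractant also called CINC-1, was the most closely sampled member, with 10 spots of its probe per array. Their median signal was 5.35, 5.85, 5.69 and 4.53 on replicates 1 to 4, which was 1.04, 1.03, 1.09 and 0.99 times the median negative control. Negative control spots at or above the Cxcl1 median made up 36.0%, 41.6%, 27.9% and 56.5% of the 308 on each array. The Cxcl1 medians thus lay inside the distribution of the negative controls on every array. Of the 40 spots, 1 was marked well above background, on replicate 2 with a signal of 35.3. It exceeded the highest negative control of that array, at 23.4, and the software flagged that spot as an outlier of its probe. It was 1 of 2 spots left out, and the highest of the remaining spots read 8.54.

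Cxcl9 and Cxcl11, the other CXCR3 ligands, were at or near background, with their highest readings on replicate 1. Cxcl9 read 26.0, 7.44, 4.80 and 4.22 on replicates 1 to 4. On replicate 1 it was marked well above background, where the lowest signal with that mark was 21.7, and on replicates 3 and 4 it lay below the median negative control. Cxcl11 read 21.4, 15.5, 4.95 and 4.84, and was marked on no array. On replicate 1 its signal fell just short of the lowest marked signal, and 0 of 308 negative controls reached it, while on replicate 2 there were 3 that did. The software also has a weaker mark, for signal that is positive and significant, by which Cxcl11 passed on 3 arrays and Cxcl9 on 2, so that 3 of 6 members met it on all 4 arrays, beside 55.7% of all measured genes.

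**Figure D2:**
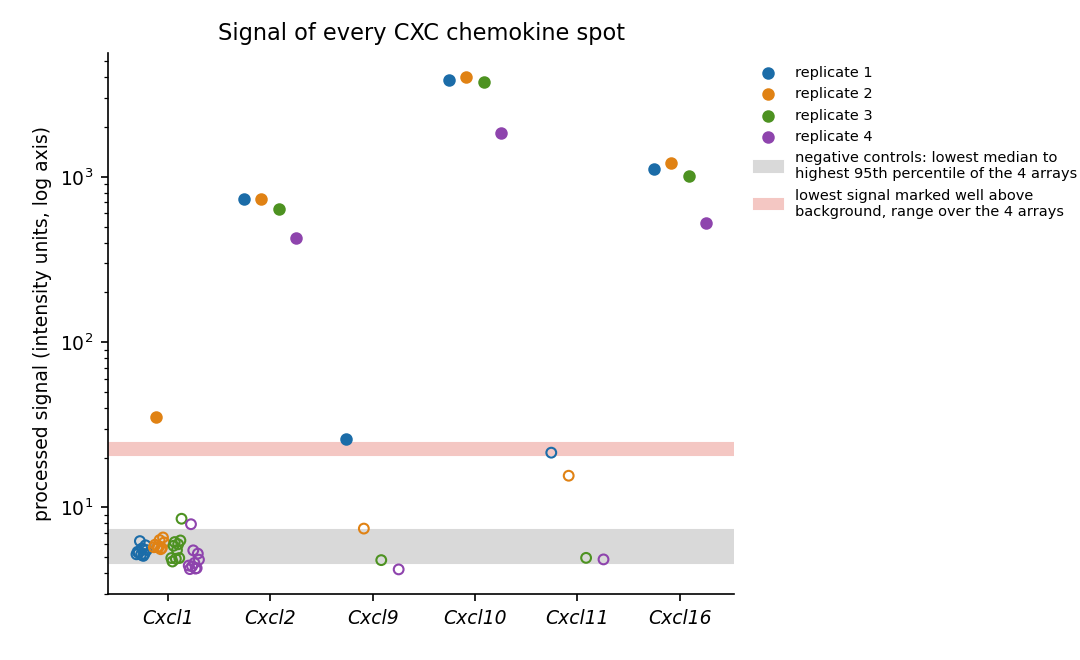
Processed signal of each spot (log axis) for the 6 measured CXC chemokine genes, coloured by replicate. Filled points are marked well above background and open points are not; Cxcl2, Cxcl10 and Cxcl16 lie between 426 and 3993, and all but 1 of the 40 Cxcl1 spots lie at or near the grey band of the negative controls.

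Levels compare arrays on a common scale: log2 of the processed signal minus the array's 75th percentile over sample probes. A level says where a probe stands on its array, and levels of different genes have no order. Cxcl2 lay at 2.53, 2.48, 2.69 and 3.12 on replicates 1 to 4, a mean of 2.70 ± 0.29 (SD, n = 4). Replicate 4 was its highest level, although it had been the lowest raw signal. Without replicate 4 the SD was 0.11, so this array sets most of the spread of Cxcl2.

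Cxcl10 lay at 4.91, 4.93, 5.25 and 5.23, a mean of 5.08 ± 0.19 (SD, n = 4). Cxcl16 lay at 3.12, 3.22, 3.35 and 3.42, a mean of 3.28 ± 0.13 (SD, n = 4). On this scale their highest and lowest arrays were 1.26-fold apart for Cxcl10 and 1.23-fold for Cxcl16, against 1.56-fold for Cxcl2. None of the 3 genes had a range above 1 log2 unit there, which 13.9% of all detected genes had. Scaled to the spike-in RNA instead, Cxcl10 ran from 0.36 to -0.65 about its own mean and Cxcl16 from 0.45 to -0.66. Both ranges were then above 1 log2 unit, but not that of Cxcl2, from 0.29 to -0.39.

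The median SD over all 7366 detected genes was 0.25. Among the 1104, 645 and 1031 detected genes within 0.5 log2 units of the mean level of Cxcl2, Cxcl10 and Cxcl16, it was 0.23, 0.24 and 0.24. On the percentile scale, the SD of Cxcl2 was larger than that of 58.0% of detected genes. That of Cxcl10 was larger than 34.8% and that of Cxcl16 larger than 21.5%. This order of the SDs depended on the scaling: with normexp they were 0.030, 0.22 and 0.17 for Cxcl2, Cxcl10 and Cxcl16, so that Cxcl2 had the smallest, and with quantile scaling 0.24, 0.097 and 0.073. With spike-in scaling the median SD over all detected genes was 0.53, and the shares above were not computed on that scale. The software's own error for a single spot of these genes averaged 0.14 log2 units.

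The levels of the members that were not detected can be set beside the lowest marked level of each array. The mark is set spot by spot, so this is not a strict limit, and an unmarked spot can lie above it. The lowest level marked well above background was -2.56, -2.41, -2.09 and -1.24 on replicates 1 to 4. Cxcl1 lay below it on every array, with levels from -4.55 to -3.33, and so did Cxcl11, from -4.31 to -2.58. Cxcl9 read -2.30 on replicate 1, above the lowest marked level of that array, and from -4.36 to -3.54 on the others.

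**Figure D3:**
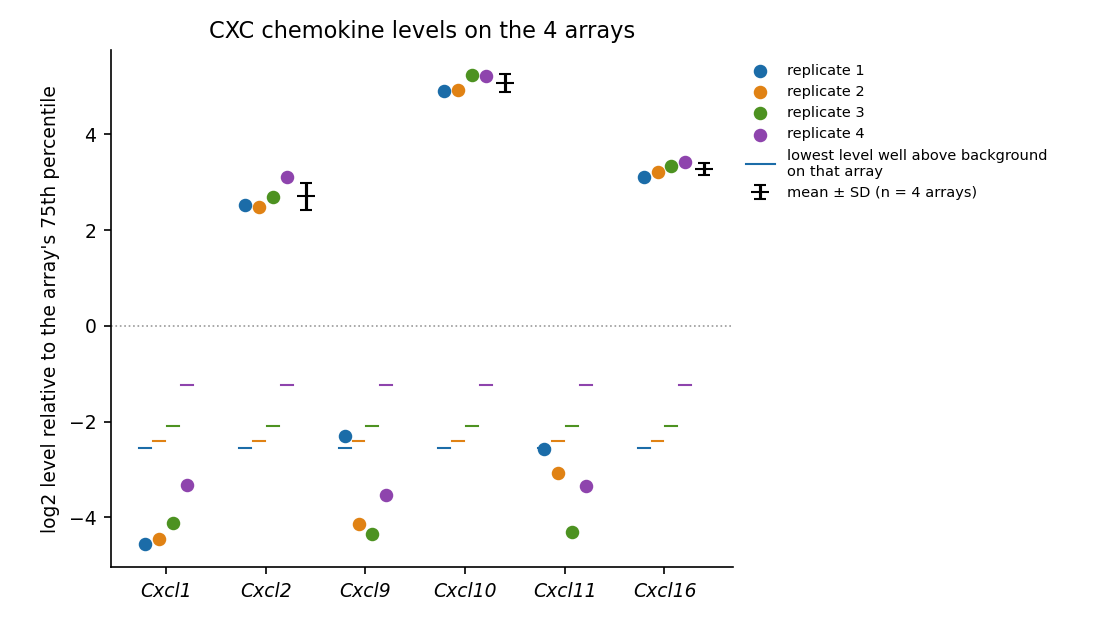
Log2 level relative to the array's 75th percentile for each CXC chemokine gene, with a point per replicate and, for the 3 detected genes, the mean ± SD over 4 arrays. Short coloured lines give the lowest level marked well above background on each array; the points of Cxcl1 and Cxcl11 lie below them.

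Across the cultures, the detected members moved by small amounts whose direction depended on the scaling. Cxcl2 deviated from its own mean by -0.18, -0.22, -0.02 and 0.42 log2 units on replicates 1 to 4, but by 0.20, 0.29, -0.10 and -0.39 with spike-in scaling and by -0.011, -0.026, -0.0050 and 0.043 with normexp, another background correction. Cxcl10 deviated by -0.17, -0.15, 0.17 and 0.15, but by 0.20, 0.36, 0.09 and -0.65 with spike-in scaling and by 0.15, 0.18, -0.01 and -0.31 with normexp. Cxcl16 deviated by -0.16, -0.06, 0.07 and 0.14, but by 0.22, 0.45, -0.01 and -0.66 with spike-in scaling and by -0.12, 0.05, 0.22 and -0.14 with normexp. On replicates 1, 2 and 4 no deviation of these 3 genes kept its sign under all of these scalings.

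On the percentile scale, 0, 0, 2 and 3 of the 3 detected members lay above their own mean on replicates 1 to 4, beside 38.7%, 41.9%, 61.9% and 59.6% of all detected genes. The median detected gene deviated by -0.07, -0.07, 0.06 and 0.10. On each array most of the members thus lay on the side where the larger share of genes lay. With spike-in scaling the median itself moved to 0.31, 0.45, -0.03 and -0.71. Relative to the median detected gene, which percentile and spike-in scaling leave alike, Cxcl2 stood at -0.11, -0.16, -0.07 and 0.32, Cxcl10 at -0.10, -0.09, 0.11 and 0.05, and Cxcl16 at -0.09, 0.0044, 0.02 and 0.04. Under normexp those of Cxcl2 were -0.02, -0.07, -0.09 and 0.18, with the same signs, while those of Cxcl10 turned to 0.14, 0.13, -0.10 and -0.18. Those of Cxcl16 were -0.13, -0.00021, 0.14 and -0.011, turned in sign on replicates 2 and 4.

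Compared with one another, Cxcl2 stood above both Cxcl10 and Cxcl16 on replicate 4, relative to each gene's own mean. The deviation of Cxcl10 minus that of Cxcl16 was -0.01, -0.09, 0.10 and 0.01, a root mean square of 0.07 over the 4 arrays. For Cxcl2 minus Cxcl10 it was -0.01, -0.07, -0.19 and 0.27, and for Cxcl2 minus Cxcl16 -0.02, -0.16, -0.09 and 0.27, with a root mean square of 0.17 and 0.16. No scaling by a constant per array alters these differences. On replicate 4, Cxcl2 was higher than Cxcl10 by 0.33 and than Cxcl16 by 0.28 with quantile scaling, and by 0.35 and 0.19 with normexp. That Cxcl10 and Cxcl16 were the closest pair did not hold with normexp, where their root mean square was 0.21 against 0.16 for Cxcl2 and Cxcl16. No test was made between cultures of 1 group.

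The position of a spot on the slide can shift its signal, so the surroundings of each member spot were read as well. Within 10 rows and 10 columns of a member spot, the median deviation of the other detected spots lay within -0.14 to 0.11 log2 units of that of the whole array, over all 15 member spots and 4 arrays. For the spots of Cxcl2, Cxcl10 and Cxcl16 the extremes were -0.05 and 0.04, -0.09 and 0.04, and -0.05 and 0.07. On replicate 4 the surroundings of the Cxcl2 spot stood at 0.0062 relative to the whole array. The software had already corrected these signals for spatial trend, so small values are partly built in. The check therefore cannot decide whether position shifted a signal.

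**Figure D4:**
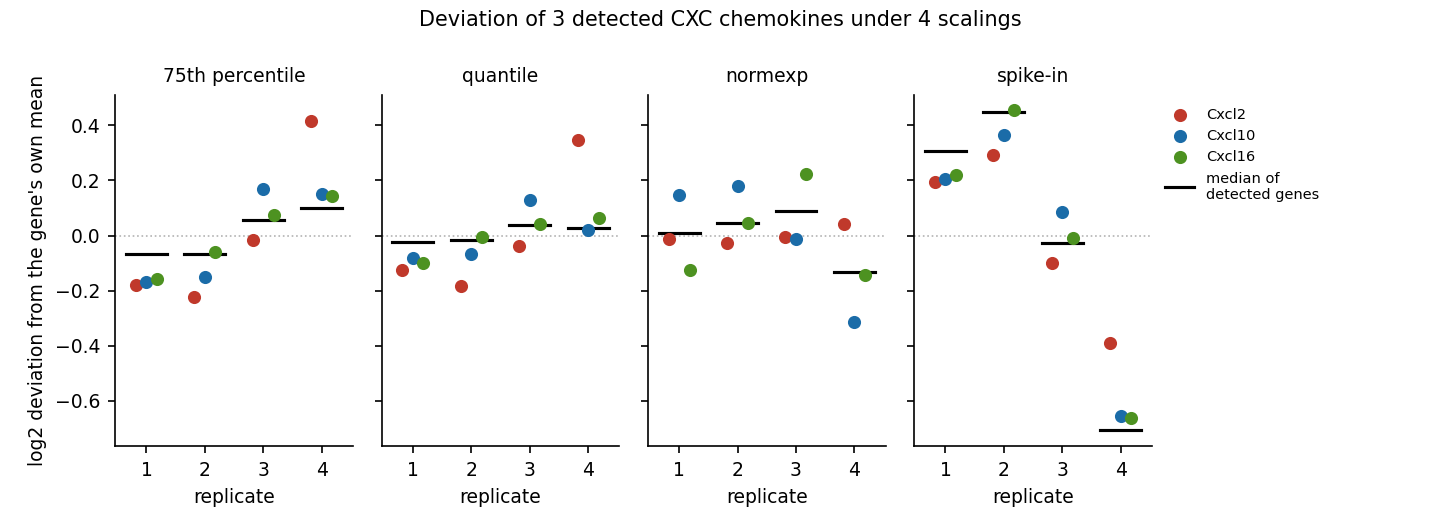
Log2 deviation of Cxcl2, Cxcl10 and Cxcl16 from their own mean on each replicate under 4 scalings, with the median of all detected genes as a black line. On replicate 4 the members lie above 0 with percentile and quantile scaling, Cxcl10 and Cxcl16 lie below 0 with normexp, and all 3 lie below 0 with spike-in scaling.

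Profiles were also compared over all detected genes, on the percentile scale, and this was not repeated with normexp or quantile scaling. Genes with the most similar profile were taken as the 3 detected genes with the smallest root mean square difference of deviations over the 4 arrays. For Cxcl2 these were Uqcc2, Coil and Tmem256, at 0.021, 0.021 and 0.023 log2 units, against a median of 0.26 over all detected genes. For Cxcl10 they were Lpcat3, Dhps and Anxa7, at 0.0086, 0.011 and 0.012, and for Cxcl16 Reep3, Lsm7 and Pacc1, at 0.010, 0.012 and 0.012. With 4 arrays such likeness is common: 489, 1015 and 1104 detected genes lay within 0.1 of Cxcl2, Cxcl10 and Cxcl16.

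The other CXC ligands listed were all short of detection on all 4 arrays, which 44.4% of all measured genes reached. Of 7 measured genes, 0 were detected on all arrays and 6 on none: Cxcl6, Cxcl12, Cxcl13, Cxcl14, Cxcl17 and Ppbp, the platelet basic protein gene. Pf4, the platelet factor 4 gene, was marked on replicate 1 only, where its level was -1.36, against -3.45, -2.48 and -3.38 on the others. Pf4 lies next to Cxcl3 in the gene table.

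Among receptors, Cxcr1 alone was detected, 1 of 8 measured genes, beside 44.4% of all measured genes. Cxcr1, a receptor for neutrophil-attracting CXC chemokines, lay at 4.83, 4.84, 5.07 and 5.13, a mean of 4.97 ± 0.16 (SD, n = 4). Cxcr2, the main receptor for the CXCL1 and CXCL2 proteins, Cxcr3, the receptor for CXCL9, CXCL10 and CXCL11, and Cxcr6, the receptor for CXCL16, were marked on no array. Nor were Cxcr4, Cxcr5 and the atypical receptor genes Ackr2 and Ackr3, and Ackr1 and Ackr4 had no matched probe. The ligand genes Cxcl2, Cxcl10 and Cxcl16 were thus detected in cells where the probes for Cxcr2, Cxcr3 and Cxcr6 were not.

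All 4 genes of CXCL16 shedding were detected, beside 44.4% of all measured genes. Adam10 and Adam17, which encode the metalloproteases that cleave membrane CXCL16, lay at -0.72 ± 0.17 and 1.25 ± 0.20 (SD, n = 4 each). The rhomboid-like regulators of ADAM17, Rhbdf1 and Rhbdf2, lay at -1.07 ± 0.51 and 3.23 ± 0.46 (SD, n = 4 each). Rhbdf2 read 2.87, 2.86, 3.40 and 3.80.

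Of the interferon genes upstream of Cxcl9, Cxcl10 and Cxcl11, 12 of 14 measured were detected, beside 44.4% of all measured genes. The 12 included Irf1 and both interferon-gamma receptor genes. The exceptions were the ligands themselves: Ifng was marked on no array and Ifnb1 on replicate 1 only, at a level of -2.30 there. Ifnar2 had no matched probe. Irf1 lay at 3.39 ± 0.21 and Irf7 at 2.71 ± 0.17 (SD, n = 4 each; these 2 genes were chosen after their values were seen). The widest spreads of the list were those of Tyk2 (0.86 ± 0.46), Irf3 (4.96 ± 0.44) and Stat2 (4.86 ± 0.34). The median deviations of the 12 genes were -0.12, -0.13, 0.01 and 0.22 on replicates 1 to 4, but 0.26, 0.39, -0.07 and -0.59 with spike-in scaling and -0.04, 0.06, 0.07 and -0.10 with normexp.

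Of the NF-kB genes upstream of Cxcl1, Cxcl2 and Cxcl3, 14 of 17 measured were detected, beside 44.4% of all measured genes. Il1r1, the signalling receptor for interleukin-1, was marked on no array, Irak4 on 2 and Traf6 on 3, and Relb, Rel and Nfkbiz had no matched probe. The widest spreads were those of Tlr4, the lipopolysaccharide receptor gene (0.55 ± 0.56), Nfkbia, the gene of the NF-kB inhibitor (4.81 ± 0.55), and the subunit gene Rela (3.24 ± 0.53). Tlr4 read 0.86, 1.03, 0.55 and -0.24, with its lowest value on replicate 4. The list's median deviations were -0.29, -0.31, 0.16 and 0.34, but 0.09, 0.20, 0.08 and -0.47 with spike-in scaling and -0.04, -0.09, 0.22 and -0.0093 with normexp. Relative to the median detected gene, the list stood at -0.22, -0.25, 0.10 and 0.24 with percentile or spike-in scaling and at -0.05, -0.14, 0.13 and 0.12 with normexp. On that footing Cxcl2 shared the sign of the list on replicates 1, 2 and 4 and not on replicate 3. This was not particular to Cxcl2: with percentile scaling Cxcl10 shared it on every replicate and Cxcl16 on replicates 1, 3 and 4. With normexp Cxcl10 shared it on no replicate and Cxcl16 on replicates 1, 2 and 3. How many of all detected genes share these signs was not counted.

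Several CXC chemokine transcripts carry AU-rich elements that affect their stability. Of the measured genes listed for control of transcript stability, whether or not through these elements, 6 of 8 were detected, beside 44.4% of all measured genes. Zc3h12a, which encodes an RNase that degrades inflammatory transcripts, lay at 1.43 ± 0.56, and Elavl1, the gene of the stabilizing protein HuR, at 5.35 ± 0.19 (SD, n = 4 each). Zfp36, encoding the destabilizing protein tristetraprolin, and Arid5a were marked on no array, whereas its relatives Zfp36l1 and Zfp36l2 lay at 1.42 ± 0.13 and 5.64 ± 0.12. Traf3ip2, the adaptor gene of interleukin-17 signalling, lay at 2.12 ± 0.35, Hnrnpd at 0.17 ± 0.25, and Khsrp had no matched probe.

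**Figure D5:**
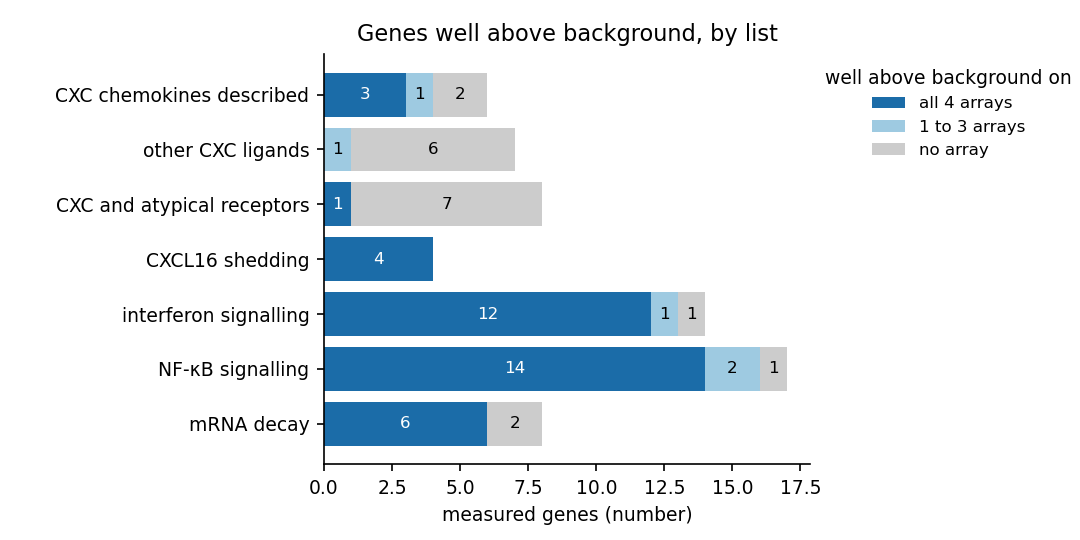
Number of measured genes per list that were well above background on all 4 arrays, on 1 to 3 arrays or on none. The 6 measured CXC chemokines divide into 3, 1 and 2, the other CXC ligands into 0, 1 and 6, and the receptors into 1, 0 and 7, while most genes of interferon and NF-κB signalling fall in the first class.

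The labelled cell type was checked against marker genes. Of 10 macrophage genes, 9 were detected, Cd68 at 7.47 ± 0.24 and Lyz2 at 9.82 ± 0.17 among them, and Marco was marked on no array. Over all measured genes, 44.4% were detected. Detected shares were 1 of 7 for neutrophils (Camp), 0 of 7 for epithelium, 0 of 2 for B cells, 1 of 6 for fibroblasts (Dcn), 3 of 6 for T cells (Cd3d, Cd4 and Lck) and 3 of 4 for endothelium (Pecam1, Vwf and Cdh5). Of the detected genes of other cell types, Vwf lay at 5.50 ± 0.29, Dcn at 3.41 ± 0.28, Camp at 2.64 ± 0.04, Pecam1 at 1.83 ± 0.03, Cd4 at 0.68 ± 0.66, Cd3d at 0.42 ± 0.34, Lck at -0.24 ± 0.19 and Cdh5 at -1.01 ± 0.54 (SD, n = 4 each). Others of the same lists, such as Elane, Epcam, Cd3e, Cd79b, Col1a1 and Kdr, were marked on no array. The samples were of 1 established macrophage line, and the source of the signals of these genes was not tested. All 10 housekeeping genes were detected.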

How the data were processed

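The deposited values are spot intensities of 1-colour Cy3 arrays. The scanning software was Agilent Feature Extraction, version 11.0.1.1 according to the submitters' processing notes. Per the file headers, it corrected the processed signal for background and spatial trend in every array, with no step between arrays, and set the marks used for each spot (0 or 1). Spots flagged as non-uniform or population outliers were left out, values were put on the log2 scale and averaged by probe, and the arrays were centred on their 75th percentile over 45598 sample probes. No sample spot was saturated. Through their accessions, 21109 probes matched a GRCr8 RefSeq symbol and 24489 did not; a gene took its brightest probe. Promoter windows come from RefSeq (GRCr8), so their coordinates are not those of the array's design build.

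The members and lists were chosen with earlier results of these data known. Named were all members, all of lists up to 10 genes, and, of longer lists, the minority and the 3 widest SDs. Detection was counted and levels described without tests. Alternatives were the detection mark, number of arrays, probes, spots, background correction (normexp, offset 50, on the spot median), quantile, detected-probe and spike-in scaling, and each replicate left out. Arrays give no read depth; their number limits the precision. Steps were tested on simulated data. Python 3.11.15, numpy 2.4.6, pandas 2.3.3, scipy 1.17.1 and R 4.3.3 with limma 3.58.1 were used. The value of 1 list gene is not reported here.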

Additional observations from a re-analysis of the deposited data

How the results depend on the processing

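The count of 3 detected CXC chemokine genes was the same at 3 of 4 arrays, with the looser mark and with every probe detected. It was also the same with all spots kept (an alternative chosen after seeing the data) and without any 1 replicate. Over all measured genes the share was 48.2% at 3 of 4 arrays, 55.7% with the looser mark and 38.6% with every probe detected. That share was 44.4% with all spots kept and 44.5% to 47.7% without 1 replicate. The share of members, 50%, was below it only with the looser mark. Levels of Cxcl2, Cxcl10 and Cxcl16 were 2.05, 4.25 and 2.50 with normexp and -1.40, 0.98 and -0.83 with the percentile taken over detected probes, which moves the reference point itself. The SD of Cxcl2 fell to 0.03 with normexp; the cause was not tested. Quantile scaling moved no value by more than 1 SD. Deviations moved by more than 1 SD with spike-in scaling for Cxcl2 (0.20, 0.29 and -0.39 on replicates 1, 2 and 4), Cxcl10 (0.20, 0.36 and -0.65) and Cxcl16 (0.22, 0.45 and -0.66). With normexp they did so for Cxcl2 on replicate 4 (0.043), Cxcl10 on replicates 1, 2 and 4 (0.15, 0.18 and -0.31) and Cxcl16 on replicates 3 and 4 (0.22 and -0.14). Leaving out each replicate gave mean levels of 2.57 to 2.78 for Cxcl2, 5.03 to 5.14 for Cxcl10 and 3.23 to 3.33 for Cxcl16. The deviation of Cxcl2 on replicate 3 then ranged from -0.09 to 0.12, positive without replicate 4. Of 43 results checked, 0 had an array outlying by Dixon's ratio, beside 3.18% of detected genes. The check did not take in every named gene that was undetected. Cxcr2 read -2.29 on replicate 4 against -4.52, -4.40 and -4.37 on replicates 1 to 3. Ackr2 read -1.88 there against -4.15, -4.15 and -4.19. No paired analysis was possible because the arrays form 1 group.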
